A study of Mus musculus with 8 samples.

Results

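Nogo signalling is the best known brake on axon growth in the adult central nervous system, and 10 of its genes are described here by the KLF13 peaks assigned to them. They are Rtn4, Omg and Mag, which encode inhibitory ligands, Rtn4r, Rtn4rl1, Rtn4rl2 and Lingo1, which encode receptors and a co-receptor, and Rhoa, Rock1 and Rock2, which encode the GTPase and the kinases that act inside the cell. The genes were taken by name, and every row of the annotated peak list whose gene symbol was one of them was used. Of 9506 peaks assigned to 7800 genes, 9 peaks belonged to 7 of the 10 genes. Among 21900 protein-coding genes, 33.6% had an assigned peak. The 10 genes were picked with earlier results of these data known, so their share was not tested against this background. Rock2, Rtn4, all 4 receptor genes and Rock1 had peaks, and Omg, Mag and Rhoa had no assigned peak. A strong peak nevertheless lay over the start of Rhoa, assigned to its neighbour Tcta.

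The cells were HT22, an immortalised mouse hippocampal neuronal line, in the form HT22-BirA, which stably makes the bacterial biotin ligase BirA. All 8 libraries came from cells given the plasmid pTO-Klf13Bio, from which KLF13 is made with a tag that BirA biotinylates, and chromatin was taken 24 h later. In 4 libraries tagged KLF13 and the DNA crosslinked to it were pulled down on streptavidin (chromatin streptavidin precipitation, ChSP), and 4 input libraries had no precipitation. No library used here lacks BirA or tagged KLF13, so at any peak KLF13-dependent capture and other capture on streptavidin cannot be told apart, and binding by KLF13 made from the cells' own gene was not assayed. For each peak the list gives single values over all libraries together, in unnamed columns. From their values and order these were taken as the fold, meaning ChSP relative to input, then the p-value and its adjusted form. These are the authors' values, so none below carries a replicate error, read depth is unknown, and no difference between members was tested. A peak says nothing of whether HT22 cells express the gene.

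In this pathway the membrane protein Nogo, encoded by Rtn4, and the myelin proteins MAG and OMgp, encoded by Mag and Omg, bind the Nogo receptor encoded by Rtn4r on the axon. The receptor is anchored by a lipid and has no part inside the cell, so it signals through partners such as LINGO-1 and the neurotrophin receptor p75, which switch on RhoA. RhoA activates the kinases ROCK1 and ROCK2, which act on LIM kinase, cofilin and myosin so that the growth cone collapses. KLF13 is a zinc finger transcription factor of the Krüppel-like family, whose members bind GC-rich and CACCC-containing DNA.

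Sequences upstream of start sites of 4 of the genes are shown here as examples of starts inside and outside peaks. One lies at the GC-rich start of Rock2, inside the peak with the highest fold of those assigned to the members. Another lies at a Mag start whose nearest peak is 40.9 kb away. All are from RefSeq on GRCm38.p6, written 5′ to 3′ on the gene's strand and ending at the base before the start. Capitals mark the GC box GGGCGG and the CACCC motif on either strand. The longer form CACACCC contains CACCC, so its matches count in both.
Rtn4, first start, chr11:29692648-29692897 (+), in no peak: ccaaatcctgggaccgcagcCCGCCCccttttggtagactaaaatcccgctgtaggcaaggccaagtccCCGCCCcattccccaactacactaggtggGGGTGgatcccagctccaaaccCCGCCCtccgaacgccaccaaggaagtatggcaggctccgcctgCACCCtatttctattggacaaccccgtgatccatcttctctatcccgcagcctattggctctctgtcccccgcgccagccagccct
Rtn4, second start, chr11:29693524-29693773 (+), all inside the Rtn4 peak and inside the gene as read from its first start: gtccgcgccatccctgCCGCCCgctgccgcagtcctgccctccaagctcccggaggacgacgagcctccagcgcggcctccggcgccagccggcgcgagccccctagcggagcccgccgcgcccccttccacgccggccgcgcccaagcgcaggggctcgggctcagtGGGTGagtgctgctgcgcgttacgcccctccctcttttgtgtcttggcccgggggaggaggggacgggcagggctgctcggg
Rock2, chr12:16894728-16894977 (+), all inside the Rock2 peak: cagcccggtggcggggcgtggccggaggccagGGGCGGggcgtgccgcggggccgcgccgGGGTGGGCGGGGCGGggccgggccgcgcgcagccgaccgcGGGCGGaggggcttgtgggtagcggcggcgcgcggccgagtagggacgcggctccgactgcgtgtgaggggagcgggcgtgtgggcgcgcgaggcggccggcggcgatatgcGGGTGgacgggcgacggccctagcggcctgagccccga
Lingo1, upstream start, chr9:56796311-56796560 (-), all inside a peak assigned to Odf3l1: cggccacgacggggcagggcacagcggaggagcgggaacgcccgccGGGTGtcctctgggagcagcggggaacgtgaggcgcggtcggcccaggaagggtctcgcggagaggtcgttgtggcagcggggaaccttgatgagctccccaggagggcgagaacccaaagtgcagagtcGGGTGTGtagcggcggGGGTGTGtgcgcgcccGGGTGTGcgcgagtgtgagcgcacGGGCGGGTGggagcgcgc
Mag, chr7:30914923-30915172 (-), in no peak: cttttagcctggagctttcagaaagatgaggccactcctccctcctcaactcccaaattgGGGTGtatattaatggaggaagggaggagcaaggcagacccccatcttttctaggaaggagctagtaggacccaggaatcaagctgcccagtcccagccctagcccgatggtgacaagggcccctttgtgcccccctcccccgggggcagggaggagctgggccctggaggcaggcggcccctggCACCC
In these 250 bases Rock2 held 4 GC boxes and 46 CpG dinucleotides, the Lingo1 upstream start 1 GC box, 5 CACCC matches and 31 CpG, and Mag 0 GC boxes, 2 CACCC matches and 3 CpG. The first Rtn4 start, which lies outside the peak, held 3 GC boxes and 12 CpG, against 1 GC box and 31 CpG at the second start inside it. A match of letters is a description of the window and not a KLF13 site.

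Promoter peaks, meaning peaks no more than 1 kb from a transcription start (TSS), were assigned to 7 of the 10 genes. Among 21900 protein-coding genes, 30.9% had an assigned promoter peak and 33.6% any assigned peak, and the same 7 members made up both counts. The members were picked with earlier results of these data known, so their share was not tested against that background. The 7 genes had 8 promoter peaks, 7 of which overlapped a TSS by the authors' annotation. Their folds ran from 15.9 to 55.7 with a median of 23.6, beside a median of 22.2 (quartiles 16.5 and 30.3) over all 7599 promoter peaks, and 5 of the 8 lay above that median. This order turned among the 4753 peaks of smallest p, where the members' median was 22.4 and that of all promoter peaks 28.2. The members' promoter peaks were spread from Rtn4rl2, below the lower quartile of all promoter peaks, to Rock2, near their top.

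**Figure D1:**
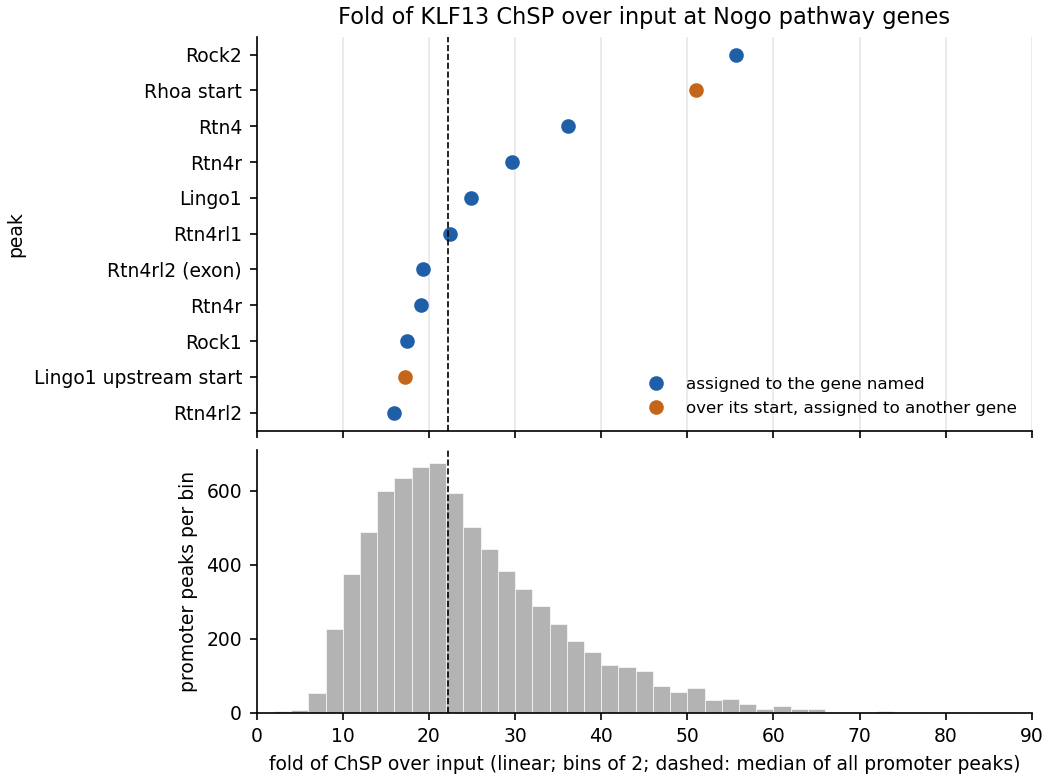
Upper panel, linear fold of ChSP over input (x axis) of each of the 9 peaks assigned to a Nogo pathway gene and of 2 peaks over starts of Rhoa and Lingo1 that are assigned to other genes. Lower panel, number of promoter peaks in each bin of fold over the whole list, with the median of 22.2 dashed in both panels. Rock2 (55.7) and the peak over the Rhoa start (51.0) lie in the right tail, and Rtn4rl2 (15.9) is the lowest.

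Of the 3 ligand genes, Rtn4 had a peak and Omg and Mag had none assigned. The Rtn4 peak (ENSMUSG00000020458; chromosome 11, 29693101 to 29694000, GRCm38) had a fold of 36.1, higher than 85.8% of promoter peaks (the authors' p = 6.49e-23, adjusted p = 3.77e-19). It was 900 bp wide and ran from 673 bp upstream to 226 bp downstream of the TSS used in the annotation. RefSeq gives Rtn4 3 starts, and they differ in their place against this peak. The start at 29693774 is the annotated TSS and lies inside. The first start of the gene, at 29692898, lies 203 bp outside the upstream edge of the peak, so the peak is within the gene body as counted from there. The third, at 29718563, lies 24.6 kb past the peak and had no peak. Nogo-C, the short form of the protein, is made from an internal promoter of this gene, whereas Nogo-A and Nogo-B share the upstream 5′ part; the start table does not say which transcript each start belongs to.

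Omg, a gene of 3101 bp at chromosome 11, 79500982 to 79504082, lies within the gene Nf1. The peak nearest to Omg was 87.0 kb away and assigned to Rab11fip4. That peak had a fold of 12.1 and was 200 bp wide (the authors' p = 7.84e-06), so it was both narrow and close to the list's largest p of 9.99e-06. The host gene Nf1, which encodes the Ras regulator neurofibromin, had a peak over its own TSS with a fold of 45.3 (chromosome 11, 79339601 to 79340300; the authors' p = 2.50e-22), 161 kb from Omg. Mag, at chromosome 7, 30899175 to 30914922, encodes a sialic acid-binding protein of myelin made by oligodendrocytes and Schwann cells. Its nearest peak was 40.9 kb away over the TSS of Usf2, a transcription factor gene, with a fold of 45.7. Over 21887 protein-coding genes placed on the chromosomes of the list, the median distance to the nearest peak was 20.7 kb. The distance was shorter than that of Omg for 68.5% of the genes and shorter than that of Mag for 58.1%. Both genes were therefore farther from a peak than most genes, but not at the extreme.

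All 3 Nogo receptor genes and Lingo1 had promoter peaks. Rtn4r, which encodes the Nogo receptor NgR1 (ENSMUSG00000043811), had a pair of them, each 600 bp wide. The upstream peak (chromosome 16, 18127001 to 18127600) had a fold of 29.6, higher than 73.2% of promoter peaks (the authors' p = 2.48e-10). The downstream peak (18127701 to 18128300) had a fold of 19.1, higher than 36.7% (the authors' p = 4.35e-11). The larger fold thus came with the larger p. A gap of 100 bp separated them, which is the step in which peak edges are given, and the RefSeq start at 18127642 lay in this gap. The TSS of the authors' annotation, at 18127706, lay 5 bp inside the downstream peak. In the whole list 187 pairs of neighbouring peaks were 100 bp or less apart, and 15.8% of genes had more than 1 peak.

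Rtn4rl1 and Rtn4rl2 encode NgR3 and NgR2, paralogues of the Nogo receptor, NgR2 being known to bind MAG. The Rtn4rl1 peak (ENSMUSG00000045287; chromosome 11, 75193401 to 75194400) had a fold of 22.4, level with the median of promoter peaks (the authors' p = 8.09e-14). It ran from 592 bp upstream to 407 bp downstream of the TSS, on which the annotation and RefSeq give the same base. Rtn4rl2 (ENSMUSG00000050896) had the lowest promoter fold of the members, 15.9, higher than 22.5% of promoter peaks (chromosome 2, 84886401 to 84887200; the authors' p = 1.44e-13). RefSeq's bounds for Rtn4rl2 reach 1441 bp beyond the upstream edge of this peak.

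A second Rtn4rl2 peak, at chromosome 2, 84871801 to 84872700, was the only one of the 9 outside a promoter. It lay in exon 3 of 3, 14.0 kb from the TSS, and its nearer edge was 504 bp from the 3′ end of the gene. Its fold of 19.3 was above the 15.9 at the gene's promoter, with a p of similar size (the authors' p = 7.35e-13). No error is known for either fold, so the order of these values is a description.

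Lingo1 encodes one of the transmembrane partners through which the Nogo receptor signals. Its assigned peak (ENSMUSG00000049556; chromosome 9, 56634901 to 56636100) had a fold of 24.9, higher than 60.3% of promoter peaks (the authors' p = 8.12e-11), and ran from 452 bp upstream to 747 bp downstream of the TSS. RefSeq gives Lingo1 another start 161 kb upstream, at 56796310. This start also lay inside a peak, at 56795701 to 56797000, with a fold of 17.2 (the authors' p = 3.65e-09). The deposited annotation calls that peak distal intergenic and assigns it to Odf3l1, a gene of the outer dense fibre family, whose TSS is 55.0 kb away. It reached 690 bp upstream and 609 bp downstream of the Lingo1 start. Both RefSeq starts of Lingo1 thus lay in peaks, of which the assignment by gene symbol counts 1.

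Rhoa, the GTPase gene, had no assigned peak although its start was covered. The peak in question, at chromosome 9, 108306101 to 108307100, had a fold of 51.0 and ranked 210 of 9506 (the authors' p = 7.67e-17, adjusted p = 1.11e-13). It was assigned to Tcta, which runs away from Rhoa on the other strand: RefSeq starts Tcta at 108306159 and Rhoa at the next base, 108306160. Of its 1000 bp, 941 bp (94.1%) lay on the Rhoa side of that junction and 59 bp on the Tcta side. It also covered a second RefSeq start of Rhoa at 108306797, 637 bp into the gene. A short stretch on the Tcta side of the junction shows the CACCC matches that lie inside the peak just before the first Rhoa start; it holds neither start and is shown at chr9:108306116-108306145 (+), with the matches in capitals.
Rhoa, just upstream of its first start, within Tcta: cgCACCCagcccCACCCtgcttgcttaaag
With any peak counted that lay within 1 kb of either end of a gene, whatever gene it was assigned to, 8 of the 10 members had one, all but the ligand genes Omg and Mag. By the same rule 31.8% of protein-coding genes had one. Under this rule Rtn4rl2 counts by the peak near its 3′ end and Lingo1 by its upstream start. The list has no means to divide such a peak between the genes of a divergent pair.

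The kinase gene Rock2 (ENSMUSG00000020580) had the highest fold of the members, 55.7, at chromosome 12, 16894201 to 16895500. It ranked 105 of all 9506 peaks by fold and 365 by p (the authors' p = 1.23e-26, adjusted p = 2.12e-22). At 1300 bp it was wider than 93.5% of peaks, and it reached from 777 bp upstream to 522 bp downstream of the TSS. Rock1 (ENSMUSG00000024290), which encodes the closely related kinase, had a fold of 17.4 at chromosome 18, 10181401 to 10182500, higher than 28.8% of promoter peaks. Its p was smaller than at any receptor gene (the authors' p = 8.58e-15), although 3 of the 4 receptor genes had a higher fold at their best promoter peak. The peak was 1100 bp wide and held both the TSS of the annotation, at 10181792, and the RefSeq start 459 bp upstream of it. Both ROCK genes were thus covered at their starts by wide peaks, of which the Rock2 peak had the higher fold. Among peaks over member starts, those at Rock2 (55.7) and Rhoa (51.0) had the highest folds, the latter being assigned to Tcta.

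**Figure D2:**
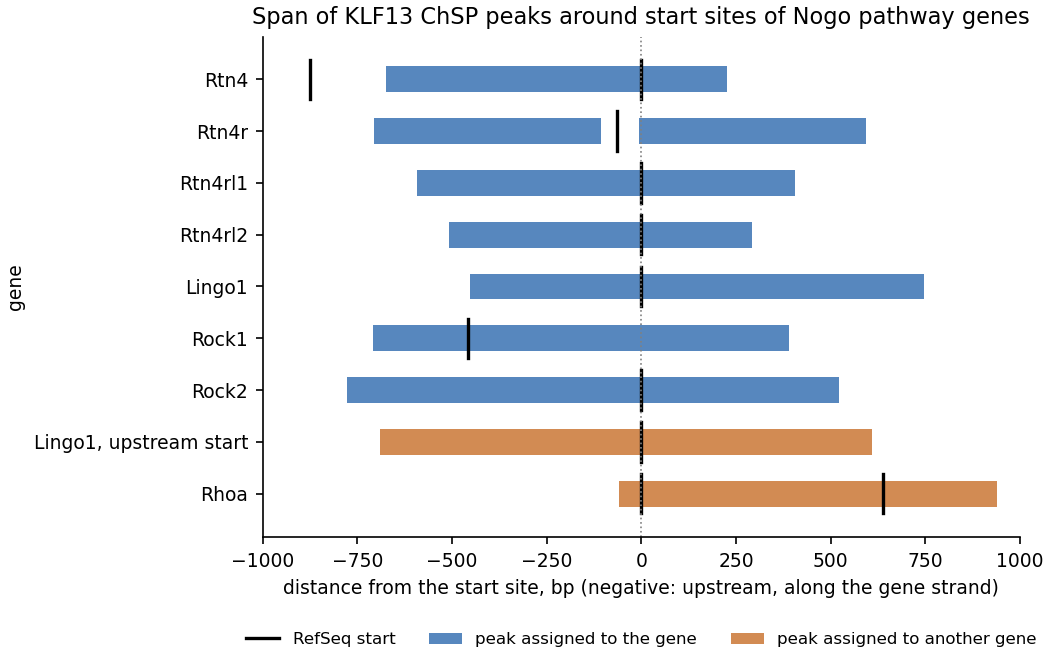
Span of each peak (bars) in bp from the start site along the gene's strand, with 0 at the TSS of the authors' annotation, or at the RefSeq start for the bottom pair of rows. Black ticks are RefSeq starts within 1 kb; for Rtn4rl1 and Rock1 the tick is the gene's 5′ end in the RefSeq gene table. The first Rtn4 start and the Rtn4r start fall outside the bars, and 94.1% of the Tcta-assigned peak lies on the Rhoa side.

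All start windows found for the members, except that of the third Rtn4 start, held more G and C than the 52.7% median of all windows. Of the 10 genes, 7 were found in a RefSeq table of start windows, each from 250 bases before to 50 bases after a start. Rtn4, Rtn4r, Rtn4rl2, Lingo1, Rhoa, Rock2 and Mag had 13 start sites in all, and 7 of these sites, from 5 genes, lay inside a peak. Of all 32851 start sites 17.8% did so. These belong to 27025 genes and include starts of non-coding genes, whereas the members are all protein-coding. The shares and medians given for all starts or windows are over this mixed set. The windows of the 7 covered sites held 56.7% to 84.7% G and C (median 74.0%), with Rock2 highest, and 21 to 55 CpG. The windows of the 6 other sites held 39.7% to 78.0% (median 62.6%), the highest being Rtn4r, whose start falls between its peaks. Of that Rtn4r window, 209 bases were within the upstream peak and none within the downstream one. The 3 Mag windows, 2 of which overlap, held 55.7% to 65.0% G and C, above the 52.7% median of all windows, but only 3 to 6 CpG, against a median of 7 in all windows and 30 in windows of covered starts. The third Rtn4 start had 39.7% G and C and 1 CpG.

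The GC box was present in 6 of the 7 windows with a covered start, in 4 copies at the second Rhoa start and 6 at Rock2, and absent from the first Rhoa window. It was present in 2 of the 6 other windows, with 7 copies at Rtn4r and 4 at the first Rtn4 start. In the whole table it was in 35.7% of windows, in 84.2% of the windows with a covered start and in 25.1% of the others. CACCC was in 6 of the 7 member windows with a covered start and in all 6 of the others. In the whole table it was in 57.5% of windows, 67.7% of those with a covered start and 55.3% of the others. CACACCC was in 1 member window, the upstream Lingo1 start with 3 copies. It was in 7.95% of all windows, 7.93% of those with a covered start and 7.96% of the others. Base composition moved with the peaks across the genome: with the windows in 5 groups by G and C, from the lowest to the highest, the share of starts inside a peak went from 0.136% over 0.850%, 3.86% and 17.3% to 68.4%. Of the 7 covered member starts, 6 belonged to the highest group, and the first Rhoa start to the next. Of the 6 other member starts, Rtn4r (78.0% G and C) and a Mag start (65.0%) also belonged to the highest group. What base composition contributes to the peaks of these genes was not tested.

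**Figure D3:**
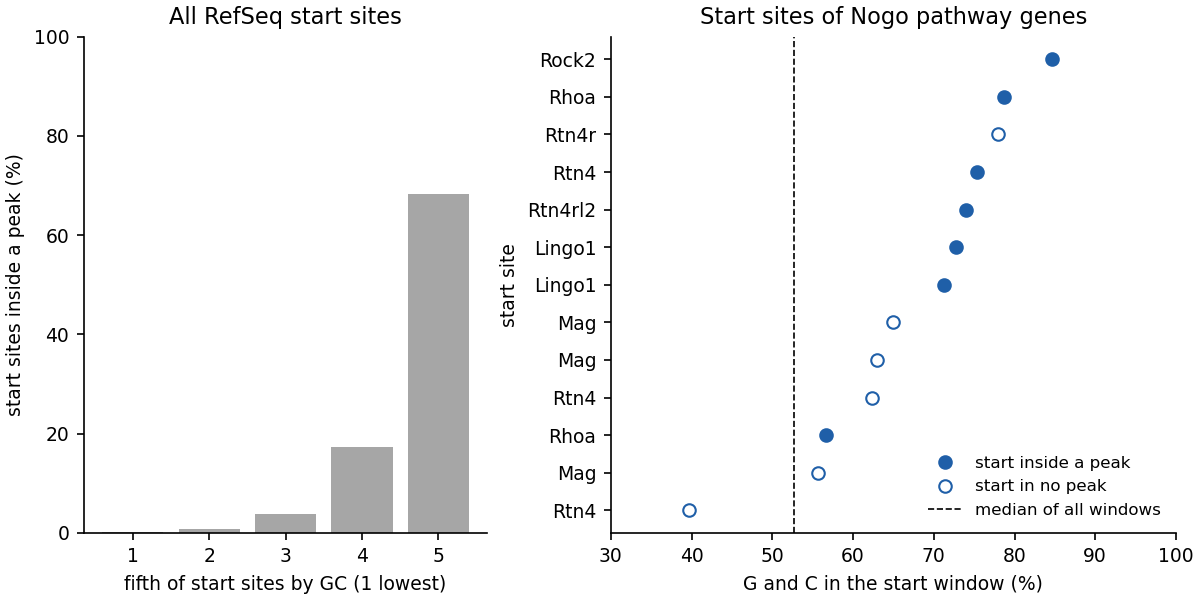
Left, share of RefSeq start sites inside a peak (y axis, percent) in 5 groups of start windows by G and C content, from 0.136% in the lowest to 68.4% in the highest. These start sites include those of non-coding genes. Right, G and C content (x axis, percent) of the 13 start windows of Nogo pathway genes, filled where the start lies inside a peak; the dashed line is the median of all windows, 52.7%.

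Gene length moved with promoter peaks as well. The share of protein-coding genes with a promoter peak was 10.5% in the shortest of 5 groups of equal size by length, then 22.6%, 27.5% and 39.5%, and 54.5% in the longest. Omg belonged to the shortest group, Mag (15748 bp) and Rtn4rl2 (17345 bp) to the third, Rtn4r, Rhoa and Rtn4 to the fourth, and Rtn4rl1, Rock2, Rock1 and Lingo1, of 73777 to 177851 bp, to the longest. The part of gene length in the members' count was not tested.

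A wider set of 33 genes around the pathway, in 4 lists by role, had promoter peaks at 19 (57.6%), against the 30.9% of all protein-coding genes. The median of each gene's highest promoter fold was 23.7 in these 19 genes and 22.9 over all protein-coding genes that had a promoter peak. A further gene, Ncan, which encodes a proteoglycan, had a peak elsewhere and 13 had none. Among the reticulon paralogues of Rtn4, all 3 had promoter peaks, with folds of 23.7 at Rtn2, 16.3 at Rtn1 and 11.5 at Rtn3, each below the 36.1 of Rtn4. Among 7 other receptor genes and LINGO paralogues, 3 had promoter peaks. Lingo3 had a fold of 23.8 (the authors' p = 6.73e-08), Lingo2 21.3 (the authors' p = 1.95e-06) and Ngfr, which encodes p75, 19.1 (the authors' p = 6.94e-12). Each of these p-values was above the 4.18e-13 median of all promoter peaks. Lingo4 and Pirb, the latter encoding another Nogo receptor, had no assigned peak. Of 7 genes for chondroitin sulfate proteoglycans, which inhibit axons in scar tissue, and their receptors, 3 had promoter peaks. Both receptor phosphatase genes were among them, Ptprf with 31.2 and Ptprs with 26.5, beside the proteoglycan gene Bcan with 26.4. Acan and Cspg4 had no assigned peak.

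Of 16 genes for ROCK targets and actomyosin, 10 had promoter peaks with a median fold of 24.1. Limk1, the LIM kinase that ROCK activates, had a fold of 51.3 (the authors' p = 1.26e-31), near that of Rock2. Ppp1r12c, a targeting subunit of myosin phosphatase, had 41.2, and Cfl2, a cofilin that LIM kinase inactivates, 39.1. Dpysl2, which encodes CRMP2, and Limk2 had no assigned peak, but peaks with folds of 18.3 and 20.5, both assigned to Pnma2, lay at an end of Dpysl2. Of the 13 genes without an assigned peak, Acan and Dpysl2 had a peak within 1 kb of an end, as Rhoa did. How often this holds over all genes without an assigned peak was not computed. The highest promoter folds assigned to the members and to the wider lists, 55.7 at Rock2 and 51.3 at Limk1, belonged to the arm inside the cell. The peak of 51.0 over the Rhoa start is assigned to Tcta and cannot be divided between these neighbours. The arm inside the cell also held the lowest promoter fold of the wider lists, 9.47 at Ppp1r12b, another myosin phosphatase subunit. That gene had a further peak outside its promoter, with a fold of 16.2. The myosin light chain gene Myl12b had 11.7, just above the 11.5 of Rtn3. The folds of this arm thus covered the whole range of the lists.

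**Figure D4:**
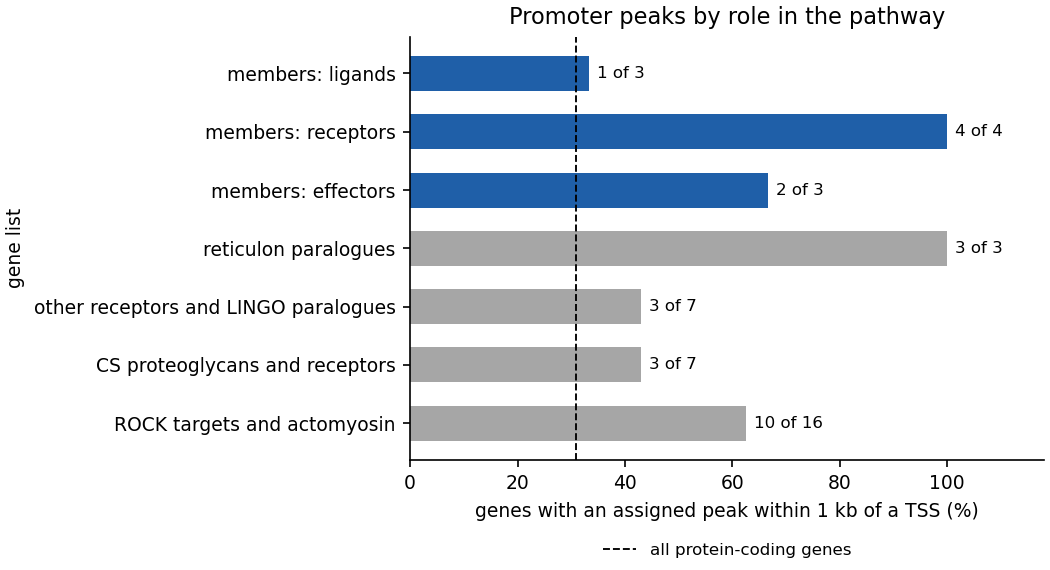
Share of genes (x axis, percent) with an assigned peak within 1 kb of a TSS, for the members by role (blue) and 4 lists of other pathway genes (grey), with the number of genes beside each bar. The dashed line is the 30.9% of all protein-coding genes; the members' receptors (4 of 4) and the reticulon paralogues (3 of 3) reach 100%, and the members' ligands (1 of 3) stand near the line.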

How the data were processed

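The data are 4 ChSP and 4 input libraries of HT22-BirA cells, numbered in the labels without saying that they are separate cultures. Per the submitters' processing notes, the build was GRCm38 and tools included HOMER 4.9.1, ChIPseeker 1.16.1, BWA 0.7.17-r1188 and FastQC 0.11.3, with no role stated; PePr is known only from the name of the list. For each peak the authors deposited 3 unnamed columns, taken from their values and order as the p-value, its adjusted form and a linear ratio (fold) of ChSP to input. The deposited score is the fold times a constant and was not used. The peaks cover all libraries together, with a scaling not given in the sources used here; depth is unknown, and edges come in steps of 100 bp. Width, TSS distance and the assigned gene are per the file headers.

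Rows were matched by symbol, and the background by gene identifier to the 21900 protein-coding genes of RefSeq on GRCm38.p6. All 33 wider genes matched, 1 by synonym; 1 planned list is not reported here. A start counted as covered when a peak held its base. Motifs were counted on both strands. The members and lists were chosen with earlier results of these data known; up to 3 genes per list with the highest promoter fold and up to 2 without a peak are named, with Ncan, Ppp1r12b and Myl12b added after their values were seen, and Rab11fip4, Usf2, Nf1, Tcta, Odf3l1 and Pnma2 only as neighbours. Alternatives were other distances, peak subsets, gene ends and backgrounds. Counting functions were tested on simulated data. Python 3.11.15, pandas 2.3.3, numpy 2.4.6 and matplotlib 3.10.9 were used.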

Additional observations from a re-analysis of the deposited data

How the results depend on the processing

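No paired analysis was possible because each peak has a single value over all libraries, so no library could be left out either. The promoter count was repeated within 3 kb of a TSS, over a TSS only, and without the 438 widest peaks. In turn, 31.6%, 25.8% and 29.3% of all protein-coding genes had a promoter peak, against 30.9% in the main count. Among the members the same 7 genes had one each time. With any peak within 1 kb of either gene end there were 8, Rhoa being added, where the share of all protein-coding genes was 31.8%. Among the 4753 peaks of smallest p there were 5, without Lingo1 and Rtn4r, while the share of all protein-coding genes went from 30.9% to 18.6%. A count by covered RefSeq starts, chosen after seeing the data, gave 5 of the 7 genes in the table. It added Rhoa and lacked Rtn4r and Mag, and Rtn4rl1, Rock1 and Omg are not in that table. By start site, 7 of 13 member starts were covered, against 17.8% of 32851 starts. The latter include starts of non-coding genes, so that share is not one of protein-coding genes alone. A share per gene was not computed, and some members have several starts. The members' median fold was 23.6 at 3 kb and without the widest peaks, their geometric mean 25.4, and the median among the peaks of smallest p 22.4, where all promoter peaks had 28.2, so that there the members stood below the list and not above it. The background share was 33.2% without unnamed gene models and 31.6% at 3 kb. The cause of these shifts was not tested.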
